A study of Mus musculus with 12 samples.

Results

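The genes described here build and recycle the sugars that end the glycans of the epithelial surface. They comprised 3 fucosyltransferase genes (Fut4, Fut2 and Fut8), 4 sialyltransferase genes (St3gal1, St3gal4, St3gal6 and St6gal1), 2 genes of enzymes that extend or branch glycan chains (B3gnt7 and Gcnt3) and Slc17a5, which encodes the exporter of sialic acid from the lysosome. The 10 genes were found by symbol among the 15855 genes of the deposited count table. They were chosen by their role in surface glycans and by their levels in pMCAO and sham mice, with the log2 fold changes between the groups already known. The difference between the groups is therefore given below as a description and carries no test.

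RNA sequencing was performed on live EpCAM+ cells, sorted by flow cytometry from the whole small intestine of C57BL6/J mice at 24 h after surgery. EpCAM is an adhesion protein on epithelial cells. Mice of the pMCAO group (n = 5) had a permanent middle cerebral artery occlusion, a model of ischaemic stroke in which a filament blocks an artery of the brain, and mice of the sham group (n = 7) had the same operation and anaesthesia without the occlusion. According to the methods of the study the animals were young adult males, and neither group carried a transgene or received a further treatment. All epithelial lineages entered a sample together.

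The last sugars of a glycan chain are mostly fucose or sialic acid, and they are added in the Golgi apparatus by enzymes that each recognise a given chain and make a given bond. In the gut, terminal fucose is a food source and docking point for bacteria, and sialic acid gives mucins and surface proteins their negative charge. When glycoproteins are degraded in the lysosome, the freed sialic acid returns to the cytosol through the transporter encoded by Slc17a5 and can be used again.

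The promoter windows of Fut4 and Slc17a5 are shown because these genes had the largest differences between the groups in opposite directions among the 7 of 10 genes with a window in the RefSeq table. Each window runs from 250 bases before to 50 bases after the start annotated in RefSeq, on the minus strand of the GRCm38.p6 assembly. The positions are chr9:14752073-14752372 for Fut4 and chr9:78587996-78588295 for Slc17a5. In the GENCODE M21 annotation Fut4 spans chr9:14748320-14752393, so its window lies wholly inside the gene there. Capitals mark matches to the motifs searched.
Fut4: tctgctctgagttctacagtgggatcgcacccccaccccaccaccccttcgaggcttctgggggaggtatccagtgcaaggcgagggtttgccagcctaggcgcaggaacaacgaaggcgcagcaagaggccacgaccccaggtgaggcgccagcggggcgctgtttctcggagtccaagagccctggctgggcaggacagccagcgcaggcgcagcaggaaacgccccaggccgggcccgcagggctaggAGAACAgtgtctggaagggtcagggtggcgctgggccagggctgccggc
Slc17a5: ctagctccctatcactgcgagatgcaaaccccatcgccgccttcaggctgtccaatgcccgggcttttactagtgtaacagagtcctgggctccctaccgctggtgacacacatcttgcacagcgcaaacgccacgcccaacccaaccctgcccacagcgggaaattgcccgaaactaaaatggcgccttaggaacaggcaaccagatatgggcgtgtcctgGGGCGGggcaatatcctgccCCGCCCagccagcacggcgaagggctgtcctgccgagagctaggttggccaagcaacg

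Both strands were searched for 5 motifs. The half-site of the glucocorticoid receptor, with the letters AGAACA, occurred 1 time in the Fut4 window and in 19% of all 32851 windows of the RefSeq table. The so-called GC box, with the letters GGGCGG, occurred 2 times in the Slc17a5 window and in 35.7% of all windows. It was also the most frequent of the motifs over the windows of the 7 genes, where it was found in 7 of 13. The E-box, with the letters CACGTG, was found in 1 of the 13 windows, that of B3gnt7, and in 7.15% of all windows. The TATA box (13.6% of all windows) was searched by the letters TATAAA and the site bound by STAT factors (8.3%) by the letters TTCNNNGAA, and both were found in 0 of the 13. The GC content was 68% in the Fut4 window and 60.7% in that of Slc17a5. A match in such a window is a description of its letters and not a measured binding site.

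Sequencing depth and the levels of cell type markers varied between libraries. Total counts per sample ranged from 7418730 to 31925579. The labels number the libraries, and the 4 libraries numbered 58 to 61 (sham replicates 1, 2 and 3 and pMCAO replicate 1), called early libraries here, stood apart from the other 8. They had 13386 to 14712 genes detected against 15343 to 15766 in the later libraries, and 34.8% to 54.5% of their counts fell on mitochondrial ribosomal RNA against 14.6% to 35.2%. Summed markers of goblet cells, the mucus-secreting cells, were 2642 to 5343 CPM, or counts scaled to the size of the library, in early and 13718 to 38566 CPM in later libraries, and all 8 goblet markers, all 7 enteroendocrine and all 6 tuft cell markers were lower in early libraries past the adjusted threshold of 0.05. The 8 enterocyte markers were present in every sample, at a summed 20217 to 52224 CPM in early and 14532 to 24818 CPM in later libraries. Of these 8, 4 were higher and 2 lower in early libraries past the adjusted threshold of 0.05. Of 7 stromal and endothelial markers, 5 had no row in the table used here, among them Col1a1 and Pdgfra, and the 8 immune markers summed to 46.6 to 245 CPM in sham and 50.2 to 154 CPM in pMCAO samples. Between the groups, 3 of 8 enterocyte markers had an unadjusted p under 0.05, all higher in pMCAO mice, and 0 of the other markers did. Over all genes tested the share was 8.43% (4.66% higher and 3.77% lower in pMCAO mice). The part of the markers in the differences below was not tested. Because early libraries made up 3 of 7 sham and 1 of 5 pMCAO samples, a fit with 4 runs of library numbers was also made. The runs were 58 to 61, 62 to 65, 66 to 68, and 72. For each of the 9 genes kept by the filter on low counts, the log2 fold change is given from that fit and within the 3 runs that hold both groups. The runs are not in the labels and were chosen by matching the authors' deposited fold changes, so values and calls with library runs depend on those fold changes.

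The fucosyltransferases differed from each other. Fut4 was higher in pMCAO mice and Fut8 less so, while Fut2 was low in the early libraries of both groups. Levels here and below are in CPM scaled by TMM factors unless a length is named.

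Fut4 (ENSMUSG00000049307, chr9:14748320-14752393 on the minus strand of GRCm38) encodes an enzyme that attaches fucose inside a chain, to make the Lewis X structure. Its level in sham mice ranged from 1.04 to 8.74 CPM with a median of 3.77 CPM, and in pMCAO replicates 1 to 5 it was 12.5, 17.2, 18.9, 25.1 and 23.3 CPM. Every pMCAO sample lay above every sham sample. Sham mice averaged 4.44 ± 2.81 CPM (SD, n = 7) against 19.4 ± 5.03 CPM (SD, n = 5) after pMCAO, and the log2 fold change was 2.15 (SE 0.35). With library runs the log2 fold change was 2.16 (SE 0.30), and within runs 1, 2 and 3 the log2 difference was 2.69, 1.52 and 2.65. Without the early libraries it was 1.91. In bulk RNA such as this, a change in the number of cells of a type and a change in RNA per cell cannot be told apart.

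Fut2 encodes the enzyme that puts fucose on the outermost galactose, which makes the H antigen of the gut surface and of mucus. Its level in sham mice ranged from 0.241 to 24.9 CPM with a median of 2.02 CPM, and in pMCAO replicates 1 to 5 it was 0.342, 8.37, 8.30, 8.80 and 5.02 CPM. The groups overlapped over almost their whole range, and the 4 early libraries held the 4 lowest values. The means were 6.21 ± 8.89 CPM (SD, n = 7) and 6.17 ± 3.59 CPM (SD, n = 5). The log2 fold change was 0.32 (SE 0.95) by the group alone and -0.59 (SE 0.52) with library runs, and 1.59 without sham replicate 6, which had the highest level. Within runs 1, 2 and 3 the log2 difference was -0.17, 0.95 and -1.89, so its sign differed between runs.

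Fut8 encodes the enzyme that adds core fucose to the stem of N-glycans. Its level in sham mice ranged from 6.84 to 37.9 CPM with a median of 22.2 CPM, and in pMCAO replicates 1 to 5 it was 28, 36.6, 32.7, 58.6 and 47.7 CPM. The groups overlapped, although 2 pMCAO samples lay above every sham sample. The log2 fold change was 0.76 (SE 0.34), and 0.69 (SE 0.24) with library runs. The difference had the same sign in each run, at 0.99, 0.64 and 0.48. A further 3 fucosyltransferase genes that share the terminal positions of these enzymes, Fut1, Fut7 and Fut9, had no row in the table used here.

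**Figure D1:**
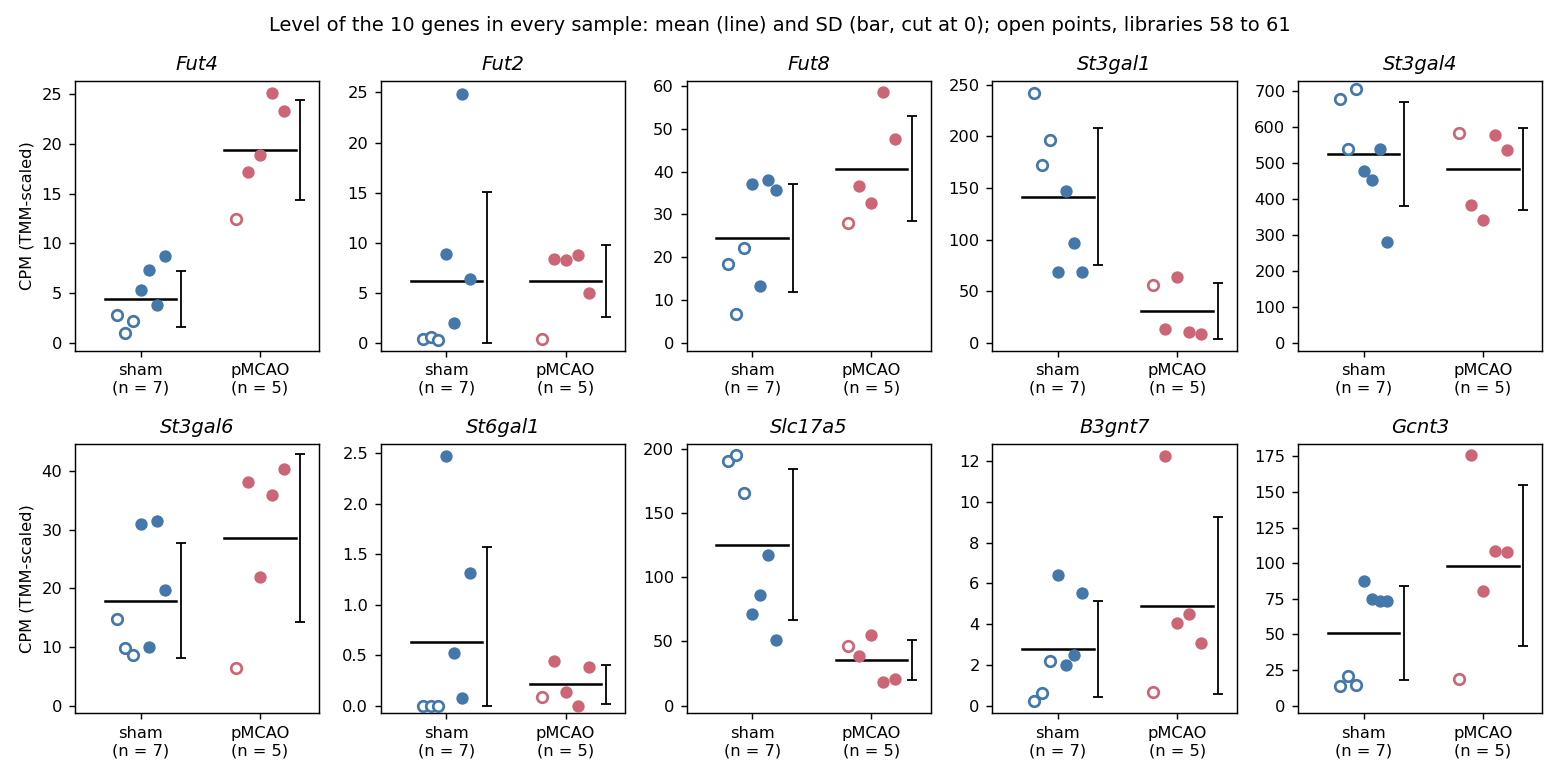
Level of the 10 genes in each sample, in CPM with TMM scaling on a linear axis, for 7 sham (blue) and 5 pMCAO (red) samples, with the group mean as a line and the SD as a bar that is cut at 0. Open points are the early libraries. All pMCAO samples lay above the sham samples for Fut4 and below them for St3gal1, while the open points of Fut2, St3gal6 and Gcnt3 lay low in both groups.

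Among the sialyltransferases, St3gal1 was lower in pMCAO mice, whereas St3gal4, the most abundant of them, was nearly level. St3gal1 (ENSMUSG00000013846, chr15:67102875-67176830, minus strand) encodes the enzyme that places sialic acid on the short galactose-containing core of mucin-type O-glycans. Its level in sham mice ranged from 68.4 to 242 CPM with a median of 147 CPM, and in pMCAO replicates 1 to 5 it was 56.0, 13.0, 64.1, 10.4 and 8.86 CPM. Every pMCAO sample lay below every sham sample, with pMCAO replicate 3 closest to the lowest sham values. Sham mice averaged 142 ± 66.6 CPM (SD, n = 7) against 30.5 ± 27.2 CPM (SD, n = 5) after pMCAO, and the log2 fold change was -2.59 (SE 0.50). It was -2.22 (SE 0.38) with library runs, and -1.85, -1.80 and -3.32 within runs 1, 2 and 3.

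St3gal4 and St3gal6 encode enzymes that sialylate galactose at the end of lactosamine chains. St3gal4 ranged from 279 to 706 CPM in sham mice with a median of 539 CPM, and was 584, 383, 341, 576 and 535 CPM in pMCAO replicates 1 to 5. All pMCAO values fell inside the sham range, and the log2 fold change was -0.08 (SE 0.24), or -0.17 (SE 0.13) with library runs and -0.12, -0.36 and 0.04 within them. St3gal6 ranged from 8.69 to 31.5 CPM in sham mice with a median of 14.8 CPM, and was 6.49, 38.2, 22, 35.9 and 40.4 CPM in pMCAO replicates 1 to 5. The lowest pMCAO value came from the early library and the other 4 lay above the sham median. Its log2 fold change was 0.51 (SE 0.44), or 0.43 (SE 0.30) with library runs, and the sign differed between runs, at -0.72, 0.71 and 0.27. No source used here states whether reads were counted by strand, and 26% of the exon bases of St3gal6 overlap Dcbld2 and 14.1% of those of St3gal4 overlap 4930581F22Rik on the opposite strand.

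St6gal1 encodes the enzyme that links sialic acid to N-glycan chains by a different bond from the other 3. It had no counts in 4 of the 12 samples, its highest level was 2.47 CPM in sham replicate 4, and it was the only 1 of the 10 genes removed by the filter on low counts. A further 2 samples had 1 and 3 counts. The limit that a count of 0 allows, 3 counts, was 0.0692 to 0.724 CPM in these libraries, which covers counting error only. Sham replicates 1, 2 and 3, all early libraries, had no count among 15852161, 7538258 and 7418730, and pMCAO replicate 4 had none among 11021897. The early library of pMCAO replicate 1 had 1 count among 15489159, and sham replicate 4 had 20 among 7852208. The part of depth and of the early libraries in the zeros was not tested. No log2 fold change is given for St6gal1, which the filter removed before the fit.

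The balance within the sialyltransferases that make the same bond could be described as a share, since all 6 genes of this kind were in the table. Per kilobase of exon, St3gal4 made up 88.1% ± 1.94 (SD, n = 7) of their summed level in sham mice, against 94.1% ± 2.78 (SD, n = 5) after pMCAO. The share of St3gal1 was 9.90% ± 2.81 (range 5.59 to 13.1) in sham and 2.77% ± 2.79 (range 0.677 to 7.18) in pMCAO mice. The share of St3gal6 was 1.61% ± 1.07 and 2.78% ± 1.44. Thus St3gal1 was second to St3gal4 in the sham mean, and level with St3gal6 in the pMCAO mean. The summed level of the 6 genes was 203 ± 56.5 CPM per kilobase in sham and 175 ± 37.3 CPM per kilobase in pMCAO mice, a difference smaller than either SD.

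Slc17a5 (ENSMUSG00000049624, chr9:78536488-78588041, minus strand) was lower in pMCAO mice. Its exons, like those of Fut4 and St3gal1, overlap no other annotated gene. It encodes sialin, which carries sialic acid out of the lysosome. Its level in sham mice ranged from 51.5 to 195 CPM with a median of 117 CPM, and in pMCAO replicates 1 to 5 it was 46.1, 38.5, 54.7, 18.5 and 20.6 CPM. The groups met at 1 point, where pMCAO replicate 3 lay above sham replicate 7. Sham mice averaged 125 ± 58.9 CPM (SD, n = 7) against 35.7 ± 15.8 CPM (SD, n = 5) after pMCAO, and the log2 fold change was -1.76 (SE 0.37). It was -1.62 (SE 0.24) with library runs, -1.99, -0.77 and -2.58 within the runs, and -1.30 without the early libraries.

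The enzymes that extend and branch chains were higher in the pMCAO mean but overlapped widely. Gcnt3, whose enzyme starts the branches of mucin O-glycans, ranged from 13.9 to 87.3 CPM in sham mice with a median of 73.3 CPM, and was 19, 176, 80.7, 109 and 108 CPM in pMCAO replicates 1 to 5. The 4 early libraries held the 4 lowest values. Its log2 fold change was 0.84 (SE 0.57), and 0.53 (SE 0.21) with library runs, with 0.24, 0.56 and 0.56 within them. B3gnt7, whose enzyme adds N-acetylglucosamine to lengthen chains, ranged from 0.239 to 6.42 CPM in sham mice with a median of 2.17 CPM, and was 0.684, 12.2, 4.06, 4.48 and 3.06 CPM in pMCAO replicates 1 to 5. Its log2 fold change was 1.16 (SE 0.72), 0.89 (SE 0.52) with library runs, and 0.56 without pMCAO replicate 2, the sample with the highest level. Within runs 1, 2 and 3 it was -0.07, 0.96 and 0.56, a change of sign in the run of early libraries. The early values of B3gnt7 rest on 3, 3 and 9 counts in sham replicates 1, 2 and 3 and on 8 in pMCAO replicate 1. Of its exon bases, 12.6% overlap Gm28626 on the opposite strand.

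In order of sham level per kilobase of exon, St3gal4 came first at 179 ± 49.2 CPM per kilobase, followed by Slc17a5 at 34.6 ± 16.2, St3gal1 at 20.7 ± 9.73, Gcnt3 at 11.9 ± 7.67, Fut8 at 3.10 ± 1.59, St3gal6 at 2.90 ± 1.6, Fut2 at 1.14 ± 1.64, Fut4 at 1.09 ± 0.69, B3gnt7 at 0.671 ± 0.568 and St6gal1 at 0.127 ± 0.192. Of neighbours in this order, the means of St3gal4 and Slc17a5 differed by more than the sum of their SDs, and those of the other pairs did not. In pMCAO mice Fut4 stood at 4.76 ± 1.23 CPM per kilobase, next to Fut8 at 5.15 ± 1.56, St3gal6 at 4.63 ± 2.32 and St3gal1 at 4.45 ± 3.97, and these 4 levels did not differ beyond their spread.

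Across the 9 genes kept by the filter, 6 had a positive and 3 a negative log2 fold change, against 55.2% positive among all 14462 genes tested. The groups did not overlap for 2 of the 9, against 0.505% of all genes, and 5 of the 9 had the same sign in all 3 runs, against 30.1%. Because the 9 were chosen with the differences between the groups known, these shares are a description and not a test. With limma-voom by the group alone, 0% of all genes passed the adjusted threshold of 0.05, and 8.43% had an unadjusted p under 0.05. Where the log2 fold change also had to be 1 or more in size, edgeR called 0 genes and DESeq2 70. With library runs 0.477% of all genes passed the adjusted threshold (0.325% with the fold limit as well). The median log2 fold change of all genes was 0.06 by the group alone and 0.01 with library runs.

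**Figure D2:**
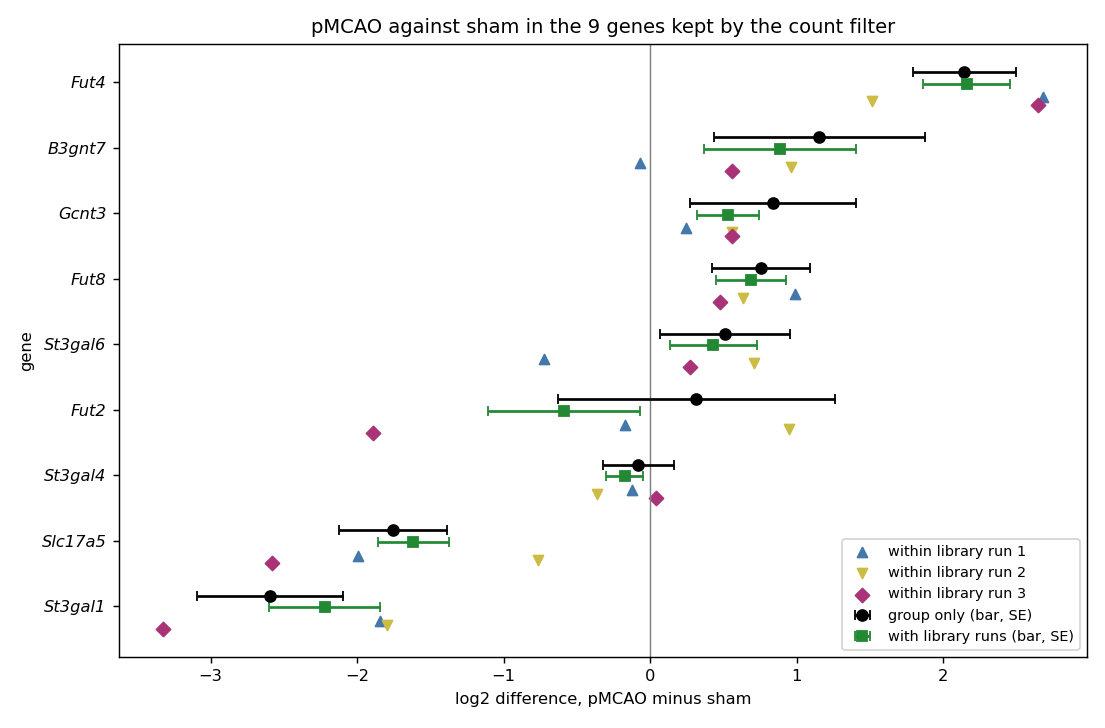
Log2 difference of pMCAO minus sham for the 9 genes kept by the filter, from the fit with the group alone (circles) and with library runs (squares), with SE bars, and as the difference of mean log2 CPM within each of 3 library runs (triangles and diamonds). Fut4 was to the right and St3gal1 and Slc17a5 to the left of 0 by every estimate, and Fut2, St3gal6, B3gnt7 and St3gal4 had estimates on both sides.

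The same genes were next compared between early and later libraries, a contrast that was not itself used to choose them. The early libraries are the first of the library runs, which were chosen by matching the authors' deposited fold changes between the groups. The split was thus taken from these data, and the adjusted p-values below describe it and are no independent test. Early libraries were already known to stand apart, and 19.1% of all genes tested passed the adjusted threshold of 0.05 in the limma-voom fit with the group as a covariate (9.86% higher and 9.20% lower in early libraries). Of the 9 genes, 4 passed, with St3gal1 and Slc17a5 higher and Gcnt3 and St3gal6 lower in early libraries. The comparison holds 4 early and 8 later libraries, and the early side rests on 3 sham samples and 1 pMCAO sample.

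Gcnt3 was 13.9, 20.7, 14.2 and 19 CPM in the early libraries and from 73.3 to 176 CPM in the later ones, without overlap. The log2 difference of early minus later was -2.42 (SE 0.29) with an adjusted p of 7.2e-05 by limma-voom, and Gcnt3 passed in all 17 alternatives, with adjusted p from 3.21e-22 to 0.00386. Fcgbp, a mucus protein of goblet cells, had a log2 difference of -2.32 (SE 0.21) with an adjusted p of 9.39e-06 in the same contrast. The lower goblet cell markers given above move with this result, and their part in it was not tested.

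St3gal1 was 242, 172, 197 and 56.0 CPM in early and from 8.86 to 147 CPM in later libraries. The 3 early sham libraries lay above every later library, and the early pMCAO library lay within the later range. The log2 difference was 1.26 (SE 0.38) with an adjusted p of 0.0262 by limma-voom. St3gal1 passed in 11 of 17 alternatives, and the adjusted p rose to 0.0944 with DESeq2, 0.0938, 0.0559, 0.0520 and 0.0509 without sham replicates 1, 3, 4 and 7, and 0.134 without pMCAO replicate 1. Slc17a5 was 191, 195, 166 and 46.1 CPM in early and from 18.5 to 117 CPM in later libraries, the same arrangement. Its log2 difference was 1.01 (SE 0.27) with an adjusted p of 0.0162 by limma-voom, and it passed in 15 of 17 alternatives, the exceptions being those without sham replicate 1 (adjusted p = 0.0685) and without sham replicate 2 (adjusted p = 0.0558). Both genes were thus lower in pMCAO mice and higher in early libraries, which held more sham than pMCAO samples.

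St3gal6 was 14.8, 9.75, 8.69 and 6.49 CPM in early and from 10.1 to 40.4 CPM in later libraries, and 1 early value lay above the lowest later value. The log2 difference was -1.41 (SE 0.47) with an adjusted p of 0.0448 by limma-voom, and it passed in 6 of 17 alternatives. It was lost without each sample in turn except sham replicate 5 and pMCAO replicate 3, with adjusted p from 0.0518 without sham replicate 1 to 0.378 without pMCAO replicate 1, where the log2 difference was -0.83, and in sham samples alone (adjusted p = 0.210). The 5 genes that did not pass had log2 differences of -4.27 (SE 1.48) with an adjusted p of 0.0508 for Fut2, -2.55 (SE 0.99) with an adjusted p of 0.0783 for B3gnt7, 0.52 (SE 0.19) with an adjusted p of 0.0632 for St3gal4, -0.94 (SE 0.42) with an adjusted p of 0.124 for Fut4 and -0.76 (SE 0.37) with an adjusted p of 0.160 for Fut8. With edgeR and with DESeq2, Fut4, Fut2 and B3gnt7 also passed, all lower in early libraries. The early values of Fut2, from 0.241 to 0.622 CPM, rest on 1 to 5 counts a library, and those of B3gnt7 on 3 to 9.

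**Figure D3:**
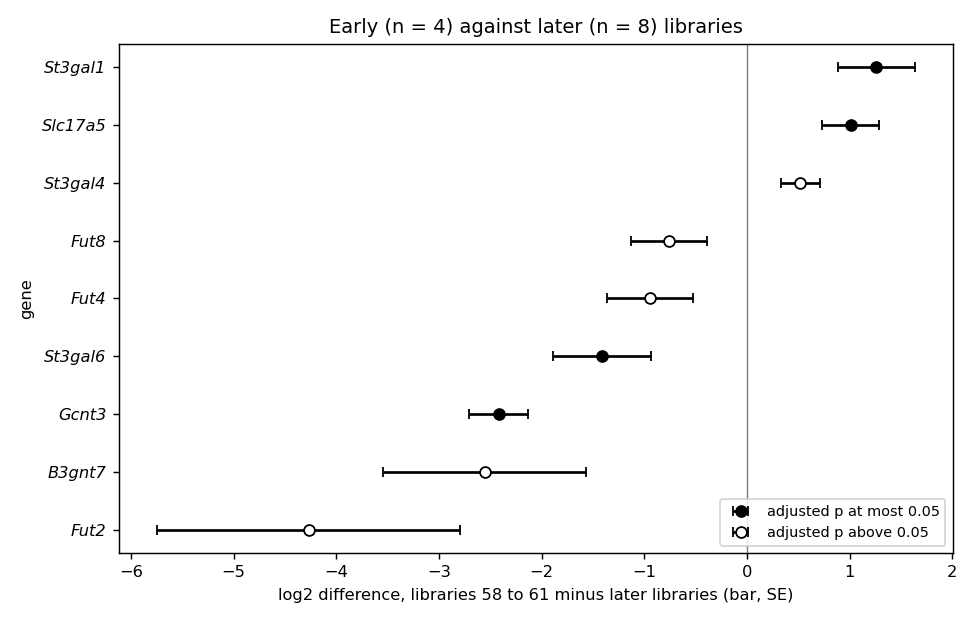
Log2 difference of the 4 early libraries minus the 8 later libraries for 9 genes, adjusted for the group, with SE bars. Filled points passed the adjusted threshold of 0.05 by limma-voom. Gcnt3 and St3gal6 were lower and St3gal1 and Slc17a5 higher in early libraries.

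Genes that act beside these enzymes were compared between the groups in 8 lists with 136 symbols, of which 101 were in the table and 94 were tested. With limma-voom by the group alone, 0 of the 94 passed the adjusted threshold of 0.05 (edgeR also 0, and DESeq2 2, Duox2 and Saa1), and 9 (5 higher and 4 lower in pMCAO mice) had an unadjusted p under 0.05. That is 9.57% of the list genes beside 8.43% of all genes (4.66% higher and 3.77% lower). The lists were fixed with earlier results of these data known, so these shares are a description. The median log2 fold change of the 94 genes was 0.24 beside 0.06 over all genes, and with library runs 0.06 beside 0.01. With library runs 2 list genes passed, Slc17a4 and Duox2, beside 0.477% of all genes. These calls depend on the deposited fold changes through the choice of the runs.

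Of the other genes of fucose supply and use, 11 were tested and 0 had an unadjusted p under 0.05. Gmds, which encodes the first enzyme of the route from GDP-mannose to GDP-fucose, had the highest log2 fold change of the list, 0.83 (SE 0.48), and was 13.3 ± 9.25 CPM (SD, n = 7) in sham against 22.3 ± 10.1 CPM (SD, n = 5) after pMCAO. It was lower in early libraries by a log2 difference of -2.16 (SE 0.41) with an adjusted p of 0.00193 by limma-voom. Slc35c2, a putative carrier of GDP-fucose, had a log2 fold change of 0.33 (SE 0.23), Fpgt, of the fucose salvage route, of -0.20 (SE 0.20), and the fucosidase gene Fuca2 of 0.00 (SE 0.18). With library runs the log2 fold change was 0.63 for Gmds, 0.25 for Slc35c2, -0.21 for Fpgt and -0.03 for Fuca2.

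Of the other sialyltransferases, 8 were tested and 0 had an unadjusted p under 0.05, with a median log2 fold change of -0.35. Among them St6galnac2, which acts on O-glycans, was 31.9 ± 25.9 CPM (SD, n = 7) in sham against 41.9 ± 19 CPM (SD, n = 5) after pMCAO, and St8sia3, St6gal2 and St6galnac4 reached at most 15.6 CPM in any sample. Of 11 genes of sialic acid supply and removal, Casd1, the sialic acid O-acetyltransferase gene, had the largest log2 fold change of the list, 1.80 (SE 0.85) with an adjusted p of 0.592. It was 2.66 ± 2.72 CPM (SD, n = 7) in sham against 5.55 ± 3.01 CPM (SD, n = 5) after pMCAO. Casd1 was also lower in early libraries by a log2 difference of -4.05 (SE 0.92) with an adjusted p of 0.00612, and its log2 fold change with library runs was 0.66 (SE 0.35). Ctsa, a lysosomal protein that protects a sialidase, had a log2 fold change of 0.49 (SE 0.25), the Golgi CMP-sialic acid carrier gene Slc35a1 of 0.05 (SE 0.40), and Npl, which splits free sialic acid, of -0.35 (SE 0.31). With library runs these were 0.28 for Ctsa, -0.05 for Slc35a1 and -0.32 for Npl.

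Slc17a4, a relative of Slc17a5 that carries organic anions, had a higher mean in pMCAO mice. It was 42.2 to 171 CPM in sham and 100.2 to 517 CPM in pMCAO mice. By the group alone it had a log2 fold change of 0.78 (SE 0.43) with an adjusted p of 0.632, and this was 1.28 (SE 0.24) with an adjusted p of 0.0332 by limma-voom with library runs, with 1.83, 0.82 and 1.43 within them. With library runs Slc17a4 passed in 3 of the 11 fits that each left out 1 sample, namely those without sham replicate 5, pMCAO replicate 2 and pMCAO replicate 3. All of these fits used the runs chosen by the deposited fold changes, so they are not independent of them. The remaining tested relative, Slc17a1, had a log2 fold change of 0.42 (SE 0.40), and of 0.70 (SE 0.40) with library runs.

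Of 26 tested genes of mucin-type O-glycan assembly, 20 had a positive log2 fold change, beside 55.2% of all genes. Between early and later libraries 10 of the 26 (38.5%) passed the adjusted threshold, 3 higher and 7 lower in early libraries, beside 19.1% of all genes. The part of the early libraries in the positive values was not tested. By the group alone, 2 of the 26 (7.69%) had an unadjusted p under 0.05, beside 8.43% of all genes. These encode enzymes that add the first sugar of the chain, with Galnt1 at 0.48 (SE 0.20) with an adjusted p of 0.543 and Galnt6 at -0.60 (SE 0.24) with an adjusted p of 0.526. Galnt6 was 255 ± 62.1 CPM (SD, n = 7) in sham against 173 ± 72.6 CPM (SD, n = 5) after pMCAO, and was higher in early libraries (log2 difference 0.75, SE 0.16, adjusted p = 0.00386). The galactosyltransferase genes B4galt4 and B4galt1 had log2 fold changes of 0.63 (SE 0.31) and -0.26 (SE 0.21). Of 15 genes of N-glycan trimming and branching, 0 had an unadjusted p under 0.05 and the median was -0.04, with the trimming enzyme genes Mogs at 0.79 (SE 0.47) and Man1a at 0.25 (SE 0.16), and the branching enzyme genes Mgat3 at -0.24 (SE 0.20) and Mgat1 at -0.50 (SE 0.26). With library runs the log2 fold change was 0.33 for Galnt1, -0.42 for Galnt6, 0.29 for B4galt4 and -0.32 for B4galt1. It was 0.48 for Mogs, 0.15 for Man1a, -0.31 for Mgat3 and -0.39 for Mgat1.

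Among the proteins that carry these glycans, 8 mucin and mucus genes were tested and 1 (12.5%) had an unadjusted p under 0.05, beside 8.43% of all genes. Muc3, a mucin anchored in the brush border, was 2285 ± 981 CPM (SD, n = 7) in sham against 1215 ± 638 CPM (SD, n = 5) after pMCAO, a log2 fold change of -0.91 (SE 0.35) with an adjusted p of 0.510, and of -0.79 (SE 0.18) with an adjusted p of 0.0623 with library runs. Muc3 was also higher in early libraries (log2 difference 1.15, SE 0.20, adjusted p = 0.00118 by limma-voom). The gene with the similar symbol Muc3a had a log2 fold change of 0.30 (SE 0.67), and of 0.22 (SE 0.25) with library runs. Muc5b, Muc6 and Fcgbp had log2 fold changes of -0.84 (SE 0.43), 0.52 (SE 0.32) and 0.88 (SE 0.63), or -0.57, 0.44 and 0.49 with library runs. The last list held 13 tested genes of the response to microbes and to interleukin 22. Interleukin 22 is a signal known to induce Fut2 in the gut. Of the 13, 5 (38.5%, 3 higher and 2 lower in pMCAO mice) had an unadjusted p under 0.05, beside 8.43% of all genes. With library runs 3 of the 13 did, beside 1843 of all 14462 genes. The median log2 fold change of the list was 0.30 by the group alone and 0.07 with library runs. The list was fixed with earlier results of these data known, so its share is a description. Reg3b and Saa1, both antimicrobial or acute-phase genes, had log2 fold changes of 1.41 (SE 0.56) with an adjusted p of 0.525 and 2.12 (SE 0.69) with an adjusted p of 0.417. Saa1 passed with DESeq2 and, by limma-voom, without pMCAO replicate 3. With library runs the log2 fold change was 0.78 (SE 0.37) for Reg3b and 1.93 (SE 0.78) for Saa1. Within runs 1, 2 and 3 it was 2.04, -0.38 and 1.32 for Reg3b. The genes of dual oxidase Duox2 and of its maturation factor Duoxa2 had log2 fold changes of -3.66 (SE 0.56) with an adjusted p of 0.0557 and -3.86 (SE 1.33) with an adjusted p of 0.448, and Duox2 passed with library runs at -3.94 (SE 0.48) with an adjusted p of 0.00422, also in 11 of 11 fits that left out 1 sample.

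**Figure D4:**
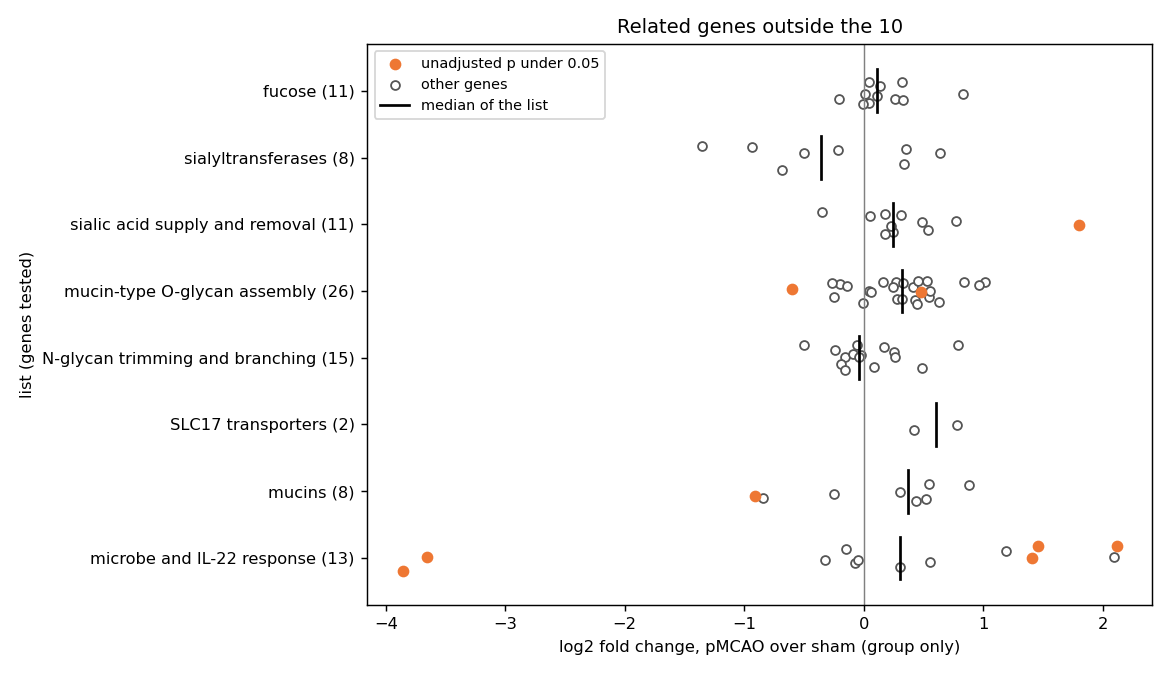
Log2 fold change of pMCAO over sham, by the group alone, for the 94 tested genes of 8 lists, with the number tested beside each name and a vertical line at each median. Coloured points had an unadjusted p under 0.05, 9 in all, and the medians lay between -0.35 and 0.60.

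The genes whose log2 CPM followed Fut4, St3gal1 and Slc17a5 most closely over the 12 samples were named by Pearson's r, as a description over libraries that share depth and group. They were Slc25a39 (r = 0.933), RP23-130C18.1 (r = 0.923) and Yipf1 (r = 0.920) for Fut4. For St3gal1 they were Apol9a (r = 0.977), Eef2k (r = 0.969) and Apol9b (r = 0.968), of which Apol9a and Apol9b are near-identical copies whose reads may be split between them. For Slc17a5 they were 9130230L23Rik (r = 0.972), Pde4d (r = 0.968) and Mbnl2 (r = 0.954). The companions of Fut4 had higher means in pMCAO mice, at 19.5 against 10.7 CPM for Slc25a39, and those of the other genes had lower means, at 44.7 against 156 CPM for Apol9a and 45.0 against 120.2 CPM for Pde4d. These directions largely follow from the choice, as r was taken over both groups and Fut4, St3gal1 and Slc17a5 differed between them.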

How the data were processed

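Whole-number counts per gene, not normalised, were deposited by the authors for 12 samples, after alignment to GRCm38 with STAR and counting with featureCounts (per the submitters' processing notes). The deposited CPM columns are these counts scaled to the library total and were not read, nor were the authors' deposited log2 fold changes and average expression, or their p-values and false discovery rates. The number of sample columns left unmatched was 0. The genes and lists were chosen with earlier results of these data known.

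Genes were filtered with filterByExpr (minimum count 10), which kept 14462 and removed 1393, scaled with TMM and fitted with limma-voom (R 4.3.3, edgeR 4.0.16 and limma 3.58.1), with Benjamini-Hochberg adjustment over all genes tested and a threshold of 0.05. A count of differentially expressed genes also required an absolute log2 fold change of 1. Log2 CPM used a prior count of 2. SE are those of the fit. Exon lengths came from GENCODE M21 on the same build (15776 of 15855 IDs matched). The library runs are not in the labels; they were taken from an earlier analysis of this table that chose them by matching the authors' deposited fold changes, so every value and call with library runs depends on those fold changes through that choice, and whether a run is a day of collection is not known. Sham replicate 7 is alone in its run and adds nothing to the group difference in that fit.

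Total counts ranged from 7418730 to 31925579, and intervals and floors cover counting error only. Replicates of a group differed by at least 20.1 in chi-square per degree of freedom, so each was counted once. Fits were tested on simulated data. Alternatives were edgeR, DESeq2 (1.42.0), RLE size factors, no filter, library runs, a replicate block, omission of the early libraries and of each sample in turn. Genes named were the 10, in each list the 2 highest and 2 lowest moderated t (1 and 1 in lists of under 8 tested) with any passing the adjustment, and for 3 genes the 3 highest correlations. Muc3a was named in addition, for its symbol beside Muc3.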

Additional observations from a re-analysis of the deposited data

Results flagged for a closer look

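Among the 20 sets of log2 CPM values examined (each of the 10 genes in each group), 1 held a sample far from the others, and about 1 would be expected by chance. Fut2 in pMCAO replicate 1 had a log2 CPM of -1.17, whereas the other pMCAO samples averaged 2.92 ± 0.38 (SD, n = 4). The gap to the nearest of them was 0.815 of the range of the group, above Dixon's critical value of 0.71 for 5 samples. The value rests on 4 counts (0.342 CPM). The sample is the only early library of its group, and the 3 early sham libraries had 0.398, 0.622 and 0.241 CPM.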

How the results depend on the processing

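The log2 fold changes of Fut4 (1.91 to 2.32), St3gal1 (-3.11 to -2.22) and Slc17a5 (-2.01 to -1.30) kept their sign in all 19 alternatives, as did those of Fut8, St3gal6, B3gnt7 and Gcnt3. Fut2 changed sign in 5 and St3gal4 in 3 of them. All 171 values lay within 1 SD of the main ones. That SD is the pooled spread of log2 CPM between samples within the groups, not the error of a fold change. It is a loose bound, which Fut2 met at -0.59 and at 1.59 beside a main value of 0.32. The number of genes higher in pMCAO mice was 5 to 7 against 6.

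The number of all genes called was 0 by the group alone and 0 with edgeR, 70 with DESeq2, 47 with library runs, and 0 to 17 without each sample in turn (17 without pMCAO replicate 3). Of the list genes, 0 were called by the group alone, 2 with DESeq2, 2 with library runs, and 0 to 2 without each sample. Alternatives chosen after seeing the data combined library runs with edgeR (21 of all genes, 1 of the lists), with DESeq2 (97 and 4) and with omission of each sample (4 to 86, the lowest without sham replicate 6, and 1 to 3). The 4 genes passing between early and later libraries became 7 with edgeR, 7 with DESeq2, and 1 to 6 without each sample, the 1 being Gcnt3 without sham replicate 1. The causes were not tested.

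Correlations between the deviations of same-numbered samples of the groups ran from -0.239 to 0.398, and 1 of 5 numbers correlated best with its own. Some same-numbered samples lie in different library runs, so these values cannot settle whether the numbers pair the samples. The main fit did not pair them. With the replicate number as a block over numbers 1 to 5, 259 genes and 4 list genes were called. St6gal1 had no count in 4 samples and was removed by the filter.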
